A study of Papio hamadryas with 14 samples.

Results

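Gene expression in whole kidney of fetal baboons (Papio hamadryas) was compared between 125 days of gestation (125dG, 3 arrays) and 60 days of gestation (60dG, 2 arrays). These 5 arrays were chosen by their stage labels from the 14 of the series. The remaining arrays are 3 at 90 days (90dG), 3 at 160 days (160dG) and 3 from adults. The 160dG arrays served to estimate the spread between arrays and to place 125dG between 60dG and 160dG, and the 90dG arrays were left out because their control signals differ from those of the other fetal arrays. No treatment or allele is given for any group. Each fetal sample is labelled a biological replicate, without naming an animal or a sex, so p-values measure the spread between these samples only. Total RNA was labelled with biotin and hybridised to a human Affymetrix array, so a baboon transcript that differs from its human probes can read low.

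The permanent kidney forms from a branching epithelial tube, the ureteric bud, and from a mesenchyme that holds nephron progenitors and stromal cells. Progenitors at the tips condense into vesicles, which elongate and pattern into the glomerulus, the proximal tubule, the loop of Henle and the distal tubule, while the bud gives rise to the collecting ducts. New nephrons are added at the outer edge of the kidney while older ones nearer the centre mature, so that a whole fetal kidney holds every step at once.

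Values are probe set signals on a linear scale. Differences are of mean log2(signal + 16), 125dG minus 60dG, so that changes of dim genes are understated; folds are on the same scale. The median signal of a probe set was 179.1, 185.6 and 194.6 on the 125dG arrays, against 176.3 and 188.4 on the 60dG arrays. The hybridisation spike-ins averaged 2453 to 2823 on the 125dG arrays and 2248 and 2591 on the 60dG arrays, against 942 to 2184 on the 90dG arrays. The GAPDH 3' to 5' ratio, which rises as RNA shortens, was 1.99, 1.83 and 1.66 at 125dG and 1.91 and 1.72 at 60dG. The actin ratio was 1.46, 1.06 and 0.853 at 125dG and 1.50 and 1.27 at 60dG. Arrays carry no read depth, and their number limits the precision. Of genes that define developing kidney, PAX2 and WT1 were well above the median signal of their arrays at both stages, and others were not: PAX2, a transcription factor of the renal lineage, gave 546, 508 and 439.7 at 125dG and 651 and 512 at 60dG, and WT1, a factor of nephron progenitors and podocytes, 1183, 1000.4 and 1143 at 125dG and 954 and 872 at 60dG. The progenitor genes SIX2 and EYA1, whose values are given below, were under the array median or near it at 125dG, and WNT11, of the ureteric tip, read 5.6, 8.0 and 9.0 at 125dG and 6.5 and 6.0 at 60dG, near the bottom of the signal range.

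Each 60dG array stood apart in its own way. Replicate 2 of 60dG carried genes of adrenal steroid synthesis. CYP17A1, an enzyme of cortisol and androgen synthesis, read 4960 on it and 8.7 to 182.7 on the 10 other fetal arrays. STAR, which moves cholesterol into mitochondria, read 1097 against 5.8 to 13.3 on the others. CYP11A1, which makes the first steroid from cholesterol, read 728 against 5.1 to 65.5, and CYP11B1, the last step to cortisol, read 640.1 against 58.6 to 111.9. CYP11B2, the aldosterone synthase, was low throughout at 7.6 to 48.7. The 13 adrenal genes with a probe set summed to 2429 to 2804 at 125dG, against 11898 on 60dG replicate 2 and 2153 on 60dG replicate 1. Only 2 of the 13, FDX1 and DLK1, passed the filter on low signal, and neither differed between stages by the test.

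Replicate 1 of 60dG alone had a high signal of XIST, the RNA of the inactive X chromosome, at 4589 against 50.2 to 138.7 on the other fetal arrays. RPS4Y1, a Y-linked ribosomal protein gene, read 90.2 there and 3332 to 5562 on the others. Sex is not given in the labels. Every result below therefore rests on a 60dG group whose arrays differ from each other in these genes, and results are given with each of them left out. Where 1 array remains at 60dG, the fit takes its spread from the remaining groups.

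**Figure D1:**
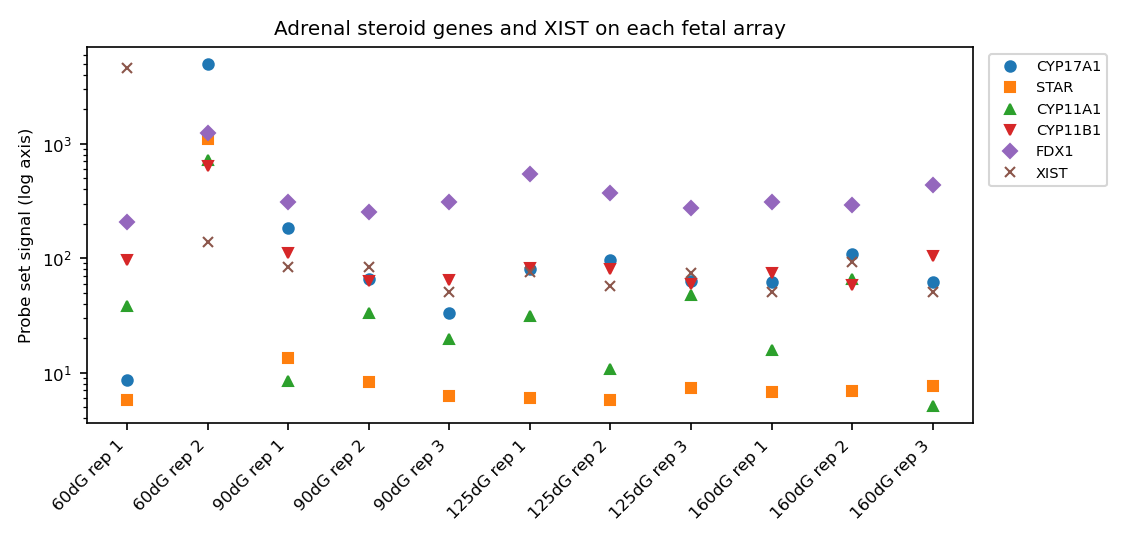
Probe set signal (log axis) of 5 adrenal steroid genes and XIST on each of the 11 fetal arrays, with arrays along the horizontal axis from 60dG to 160dG and a symbol per gene. The steroid genes stand high on 60dG replicate 2, with CYP17A1 at 4960, and XIST stands high on 60dG replicate 1, at 4589.

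Of 5240 genes tested, 281 (5.36%) differed between 125dG and 60dG at an adjusted p under 0.05 (limma, Benjamini-Hochberg over all genes tested, two-sided). Of these, 206 (3.93% of genes tested) rose and 75 (1.43%) fell. The median difference of all genes tested was -0.00. All 281 had arrays that did not overlap between the stages, as did 1916 genes tested in all (36.6%). The called differences had a median of 1.15 among genes that rose and -1.04 among genes that fell, and 169 exceeded 2-fold, 130 of them higher and 39 lower. Without 60dG replicate 1, 85 genes were called, 77 of them among the 281. Without 60dG replicate 2, 122 were called, 98 of them among the 281. The sign of the difference was the same in both fits for each of the 280 called genes that could be compared. Where the probe set stays the same, arrays that do not overlap fix that sign in advance, so it adds no support. Counts of list members called in these fits, given below, can include genes not called in the full fit. There were 53 genes, 45 higher and 8 lower, that kept their call whichever of the 8 arrays was left out, and they are called the 53 kept genes below.

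**Figure D2:**
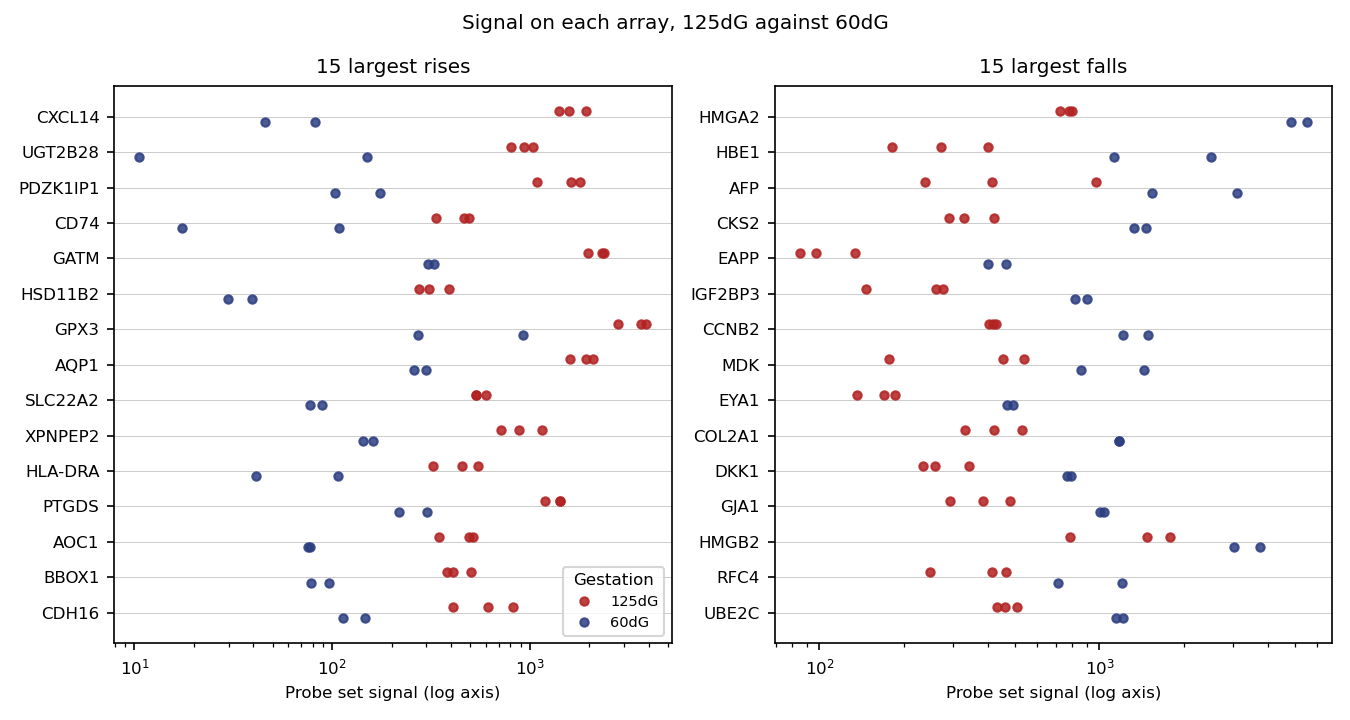
Probe set signal (log axis) on each 125dG array (red, upper row of each gene) and each 60dG array (blue, lower row) for the 15 genes with the largest rises (left panel) and the 15 with the largest falls (right panel) among called genes. The arrays of the stages do not overlap for any of them; CXCL14 lies between 1404 and 1931 at 125dG against 46.0 and 82.4 at 60dG.

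Genes of the proximal tubule, the segment that reclaims most of the filtered water, salt, glucose, amino acids and protein, gave the most rises of any list. Of 53 transport, endocytosis and brush border genes listed, 42 had a probe set and 31 passed the filter; 19 rose, none fell, and the median difference was 1.09 against -0.00 over all genes tested. All 31 differences were positive. Of all genes tested, 3.93% rose. In whole tissue, more cells of a type and more RNA per cell cannot be told apart. With replicate 1 of 60dG left out 7 of the 31 were called, and with replicate 2 left out 14 were.

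PDZK1IP1, a small membrane protein of proximal tubule cells that binds the scaffold PDZK1, had signals of 1809, 1616 and 1088 at 125dG, against 103 and 174 at 60dG. The lowest 125dG array lay far above the highest 60dG array, and the difference was 3.30 ± 0.29 (SE; 9.87-fold; limma adjusted p = 0.000136). AQP1, the water channel of the proximal tubule and thin descending limb, read 1935, 2094 and 1608 at 125dG, against 259 and 299.6 at 60dG (2.68 ± 0.24, limma adjusted p = 0.000136). Another AQP1 probe set gave a difference of 0.43. SLC22A2, the organic cation transporter of the basolateral membrane, read 537, 604 and 537 at 125dG, against 77.4 and 88.9 at 60dG (2.54 ± 0.30). XPNPEP2, a brush border aminopeptidase, read 888, 1155 and 714 at 125dG, against 161 and 144 at 60dG (2.45 ± 0.24). These 4 belong to the 53 kept genes.

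Receptors and carriers for filtered protein and solutes were also among the 19. LRP2, or megalin, the receptor that takes up filtered proteins, read 2923, 2329.9 and 2559 at 125dG, against 684 and 921 at 60dG, a difference of 1.69 ± 0.35 (limma adjusted p = 0.0158). The arrays did not overlap, but LRP2 lost its call when either 60dG array, or 125dG replicate 1, was left out. Its partner cubilin, CUBN, was not called, at 289.8, 250.4 and 583 at 125dG and 117 and 264 at 60dG (0.92 ± 0.41, limma adjusted p = 0.253). DAB2, the adaptor that binds the megalin tail, rose by 1.62 ± 0.25 and was kept, at 3701, 2612 and 3286 at 125dG and 738 and 1402 at 60dG. The fatty acid transporter SLC27A2 rose by 1.80 ± 0.17 and neprilysin, MME, by 1.48 ± 0.20, and both were kept. The glucose carrier SLC5A2 rose by 1.41 ± 0.24, with 331, 442 and 367 at 125dG and 113 and 153 at 60dG. The sodium bicarbonate carrier SLC4A4 rose by 1.34, the cystine carrier pair SLC3A1 and SLC7A9 by 1.52 and 1.15, and the phosphate carrier SLC34A1 by 0.90. Of these 5, SLC5A2 and SLC4A4 lost their calls only when 60dG replicate 1 was left out, SLC7A9 then and when 125dG replicate 2 or 3 was, and SLC3A1 and SLC34A1 whichever of the 5 arrays was left out, SLC34A1 also without 160dG replicate 1.

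Enzymes of the proximal tubule rose as well. Of 55 listed, 43 had a probe set and 25 passed the filter. Of the 25, 12 rose, where 3.93% of all genes tested did. None fell, and the median difference was 1.09. Without 60dG replicate 1, 9 were called, and without replicate 2, 11. GATM, the first enzyme of creatine synthesis, read 1963, 2329 and 2386 at 125dG, against 304 and 326 at 60dG, 6.75-fold higher (2.75 ± 0.25, limma adjusted p = 0.00014), and another of its probe sets gave 2.80. GPX3, the secreted glutathione peroxidase that the kidney makes for plasma, read 3895, 3649.7 and 2797 at 125dG, against 272 and 929 at 60dG (2.72 ± 0.41), with the 60dG arrays far apart from each other. UGT2B28, a glucuronidation enzyme, had the second largest rise at 3.82 ± 0.56, at 1038, 942 and 800.4 at 125dG and 10.6 and 149.8 at 60dG, on a probe set that can read related UGT2B transcripts. AOC1, the diamine oxidase that degrades histamine, read 492, 514 and 346 at 125dG, against 75.6 and 76.9 at 60dG (2.32 ± 0.33). Those 4 are among the 53 kept genes. BBOX1, the last enzyme of carnitine synthesis, rose by 2.11 ± 0.38, and lost its call without 60dG replicate 2.

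Of the enzymes of glucose production, FBP1 rose by 1.58 ± 0.32 and PCK2 by 1.67 ± 0.25, while PCK1, the cytosolic form of PEPCK, rose by 0.91 ± 0.22 with 251, 236 and 218 at 125dG and 127 and 108 at 60dG. PCK2 was kept, while PCK1 lost its call whichever of the 5 arrays was left out, and FBP1 without 60dG replicate 1 or 125dG replicate 2. ASS1, of arginine synthesis, rose by 1.65 but was not called with either 60dG array left out. The fatty acid hydroxylase CYP4A11 was kept and rose by 1.94, with 455, 419.7 and 341 at 125dG and 93.8 and 92.5 at 60dG. For fatty acid oxidation, 20 genes were tested and 2 rose, where 3.93% of all genes tested did. They were ACAA2 (1.23 ± 0.28) and ACOX2 (0.90 ± 0.18), and the median difference of the list was 0.43. ACAA2 lost its call when 60dG replicate 1 or any of the 125dG arrays was left out, and ACOX2 with either 60dG array or 125dG replicate 2 left out. For oxidative phosphorylation, 0 of 51 tested genes were called and the median was -0.05.

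Rises were also called outside the proximal tubule. CDH16, a cadherin of renal tubule epithelium, read 612, 825 and 409.9 at 125dG, against 114 and 147 at 60dG (2.06 ± 0.26) and was kept. In the loop of Henle list, 7 genes were tested and 1 rose, where 3.93% of all genes tested did. It was PTGER3, the prostaglandin E receptor of the thick ascending limb, by 1.31 ± 0.26. PTGER3 lost its call with either 60dG array or 125dG replicate 2 left out. SLC12A1, the furosemide-sensitive cotransporter that defines the thick ascending limb, was not called: it read 818, 974 and 553 at 125dG, against 553 and 578 at 60dG, and 2471, 1559 and 1371 at 160dG. The 125dG arrays overlapped those of 60dG, and the difference was 0.42 ± 0.27 (limma adjusted p = 0.469). KCNJ1, the potassium channel beside it, differed by 0.94 ± 0.27 (limma adjusted p = 0.074).

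In the distal tubule and collecting duct list, 5 of 15 tested genes rose, with a median of 0.26, and 3 and 4 were called without 60dG replicates 1 and 2. Of all genes tested, 3.93% rose. HSD11B2, which inactivates cortisol so that aldosterone can act, read 275, 392 and 309.6 at 125dG, against 39.4 and 29.8 at 60dG (2.75 ± 0.26, limma adjusted p = 0.00014). The 60dG values lie near the bottom of the signal range, so the fold is understated. CA12, a carbonic anhydrase, rose by 1.29 ± 0.18, although 2 other probe sets gave 0.78 and 0.11, and both HSD11B2 and CA12 were kept. AQP6, a water channel family member of intercalated cells, rose by 1.50 and lost its call without 60dG replicate 1. SCNN1A, which encodes the pore-forming alpha chain of ENaC, read 438, 349.8 and 519.6 at 125dG, against 206 and 132 at 60dG (1.30 ± 0.29). Its call was lost when 60dG replicate 2, or replicate 1 or 3 of 125dG, was left out. The collecting duct water channel AQP2 was not called, at 290.0, 352 and 437 at 125dG and 294 and 347 at 60dG. Of the distal tubule genes, CALB1 was not called, at 1059, 1106 and 771 at 125dG and 843 and 849 at 60dG (0.19 ± 0.22, limma adjusted p = 0.717). Another CALB1 probe set gave -0.14. SLC12A3 did not pass the filter, with 126, 210 and 191.5 at 125dG and 91 and 136 at 60dG.

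In the glomerulus, 3 of 18 tested podocyte and basement membrane genes rose, where 3.93% of all genes tested did. Their median difference was 0.25. COL4A3, a chain of the mature glomerular basement membrane collagen, read 1111, 972 and 1175 at 125dG, against 330.3 and 239 at 60dG (1.89 ± 0.34), and lost its call without 60dG replicate 2. HTRA1, a secreted serine protease, read 1095, 1304 and 1712 at 125dG, against 499 and 373 at 60dG (1.61 ± 0.23), and was kept. TCF21, a transcription factor of podocytes and stroma, rose by 0.67 ± 0.15, the smallest of the 3, and lost its call with either 60dG array, or 125dG replicate 1 or 2, left out. Nephrin, NPHS1, the slit diaphragm protein, differed by 0.21 ± 0.26, podocalyxin, PODXL, by -0.30 ± 0.30, and WT1, the podocyte and progenitor factor, by 0.27 ± 0.17, none of them called. Another WT1 probe set gave -0.15.

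Of 12 tested endothelial genes none was called. The 12 differences were all positive, with a median of 0.44, and PECAM1 was nearest to the threshold at 0.73 ± 0.21 (limma adjusted p = 0.0685). In the smooth muscle and mesangial list, 2 of 18 tested rose, where 3.93% of all genes tested did. They were MYLK, the myosin light chain kinase, by 1.85 ± 0.27, with 1365, 1297 and 1666 at 125dG and 431 and 346 at 60dG, and TAGLN, transgelin, by 1.02 ± 0.27. MYLK was kept, while TAGLN lost its call in 11 of 19 alternative settings, among them the removal of any of the 5 arrays or of 160dG replicate 2. The basement membrane chain COL4A1 rose by 0.92 ± 0.14 and was kept, at 7979, 7622 and 7639.7 at 125dG and 4258 and 3937 at 60dG.

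Of 38 tested fibrillar collagen and matrix genes, 3 rose and 2 fell, with a median of 0.12; without 60dG replicates 1 and 2, 1 and 2 rose and none fell. Among all genes tested, 3.93% rose and 1.43% fell. ELN, elastin, read 1006, 1347 and 1311 at 125dG, against 379.9 and 379 at 60dG (1.63 ± 0.28), lost its call without 60dG replicate 1, and gave 0.37 on another probe set. THBS2, a matricellular protein, rose by 1.62 ± 0.21 and was kept, and COL6A3 rose by 1.08 ± 0.20 but lost its call with either 60dG array left out. FBN2, the fibrillin of early elastic fibres, fell by 1.13 (SE 0.23), with 425, 374 and 665 at 125dG and 1157 and 966 at 60dG, and lost its call with either 60dG array, or 125dG replicate 1 or 2, left out. COL1A1, the main fibrillar collagen, was not called, with overlapping arrays at 9047, 10429 and 11828 at 125dG and 11921 and 10260.1 at 60dG (-0.09 ± 0.14).

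Antigen presentation genes rose. Of 42 listed MHC and interferon genes, 35 had a probe set and 19 passed the filter. Of the 19, 11 rose, where 3.93% of all genes tested did. None fell, and the median was 0.92. Without 60dG replicates 1 and 2, 5 and 9 were called. CD74, the invariant chain of MHC class II, read 496, 334 and 466 at 125dG, against 17.3 and 108 at 60dG (2.78 ± 0.43, limma adjusted p = 0.00336); its 60dG arrays lay far apart from each other. HLA-DRA, a class II alpha chain, read 324, 457 and 547 at 125dG, against 41.2 and 107 at 60dG (2.42 ± 0.31). HLA-B, a class I heavy chain, read 7439.8, 5283 and 6307 at 125dG, against 1394 and 1886 at 60dG (1.94 ± 0.24), and B2M, the class I light chain, read 9515, 8453 and 7996 at 125dG, against 3994 and 3428 at 60dG (1.22 ± 0.15). These 4 were kept; several HLA probe sets can read more than 1 HLA gene. Of 23 macrophage and leukocyte genes with a probe set, 4 passed the filter and none was called. Their summed signal was 2431 to 3360 at 125dG, against 2362 and 2595 at 60dG, and its part in the MHC rises was not tested.

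CXCL14, a chemokine, had the largest difference of all. It read 1931, 1404 and 1575 at 125dG, against 46.0 and 82.4 at 60dG, 21-fold higher (4.39 ± 0.35, limma adjusted p = 8.63e-05), and 1579.6, 1558 and 3808 at 160dG. PTGDS, the prostaglandin D synthase, read 1201, 1427 and 1432 at 125dG, against 302 and 217 at 60dG (2.32 ± 0.27), with 1.86 and 2.12 on 2 other probe sets, and both genes were kept. In the chemokine and prostaglandin list, 4 of 11 tested genes rose, and 2 with either 60dG array left out. The complement list had 2 of 9. Among all genes tested, 3.93% rose. C7, of the membrane attack complex, rose by 1.37 ± 0.21 and was kept. Clusterin, CLU, rose by 0.93 ± 0.23 and lost its call in 8 of 19 alternative settings. Among these were the removal of either 60dG array, 125dG replicate 1 or 2, or 160dG replicate 1.

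The list of oncofetal and imprinted growth genes also held IGF1 and its binding proteins, and it changed in both directions. Of its 25 tested genes, 5 rose and 5 fell, with a median of -0.10. Among all genes tested, 3.93% rose and 1.43% fell. The 5 that rose were IGF1, by 1.24 ± 0.31, and its binding proteins IGFBP3, IGFBP4, IGFBP5 and IGFBP7, by 1.29, 1.03, 0.84 and 1.33. No oncofetal or imprinted gene was among them. IGFBP7 was the brightest, at 9708, 10552 and 8994 at 125dG and 4004 and 3721 at 60dG, and was kept. IGFBP3 and IGFBP5 lost their calls without 60dG replicate 2, IGFBP4 with either 60dG array left out, and IGF1 with either 60dG array, 125dG replicate 1 or 3, or 160dG replicate 1 left out.

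Of the falls, the deepest was that of HMGA2, a chromatin protein of embryonic cells, which read 777, 725 and 799.7 at 125dG, against 5496 and 4817 at 60dG. The 125dG level was 0.152 times that at 60dG (-2.72 ± 0.17, limma adjusted p = 1.6e-05), and it was 368 on average at 160dG. IGF2BP3, a fetal RNA-binding protein, read 261, 277 and 147 at 125dG, against 902 and 816 at 60dG (-1.88 ± 0.28). The imprinted PEG10 read 1471, 1638 and 1552 at 125dG, against 3017 and 3808 at 60dG (-1.12 ± 0.17). These 3 were kept. HMGA1 fell by 1.25 (SE 0.23) and the imprinted MEST by 0.82 (SE 0.20), but HMGA1 was not called without 60dG replicate 1, nor MEST with any of the 5 arrays left out. MDK, the growth factor midkine, fell by 1.61 (SE 0.37) and lost its call with either 60dG array left out.

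Cell division genes fell. In the mitosis and spindle list, 51 of 54 genes had a probe set and 20 passed the filter. Of the 20, 11 fell, where 1.43% of all genes tested did. None rose, and the median difference was -1.08. Without 60dG replicate 1, 4 were called, and likewise without replicate 2. CKS2, a subunit of the cyclin-dependent kinases, read 419.9, 328 and 291 at 125dG, against 1469 and 1326 at 60dG (-1.98 ± 0.21, limma adjusted p = 0.00033). CCNB2, a mitotic cyclin, read 416, 404 and 428 at 125dG, against 1489 and 1218 at 60dG (-1.66 ± 0.24). UBE2C, the ubiquitin enzyme that helps end mitosis, read 509, 431 and 458 at 125dG, against 1211 and 1142 at 60dG (-1.31 ± 0.18). These 3 were kept. CDK1, the mitotic kinase, fell by 1.25 (SE 0.29) and was no longer called when 60dG replicate 2, or replicate 1 or 2 of 125dG, was left out. TOP2A, the topoisomerase of dividing cells, was not called, at -1.21 ± 0.34 (limma adjusted p = 0.0668), and MKI67 did not pass the filter.

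Of 29 tested genes of G1/S control and DNA replication, 5 fell, none rose, and the median was -0.42, but none of the 29 was called without 60dG replicate 1, nor without replicate 2. Of all genes tested, 1.43% fell. The 5 of the list that fell were RFC4 and MCM2 of the replication machinery, CCND2, RRM2 and CDC7, at -1.31, -1.14, -1.09, -0.91 and -0.67. Leaving out 125dG replicate 1 also ended the calls of RFC4, CCND2 and CDC7, replicate 2 those of RFC4, MCM2, RRM2 and CDC7, and replicate 3 those of all 5. Of the 160dG arrays, replicate 1 did so for RFC4, RRM2 and CDC7, replicate 2 for CDC7 and replicate 3 for RRM2. HMGB2, a chromatin protein of proliferating cells, fell by 1.39 (SE 0.28) and lost its call with either 60dG array left out. In the DNA methylation and Polycomb list 2 of 14 tested genes fell, where 1.43% of all genes tested did. They were the Polycomb methyltransferase EZH2 (-1.04 ± 0.21) and CBX5 (-0.76 ± 0.19), a heterochromatin protein that was listed with them but is of neither group. Both lost their calls with either 60dG array, or 125dG replicate 1 or 2, left out, CBX5 also without 125dG replicate 3.

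**Figure D3:**
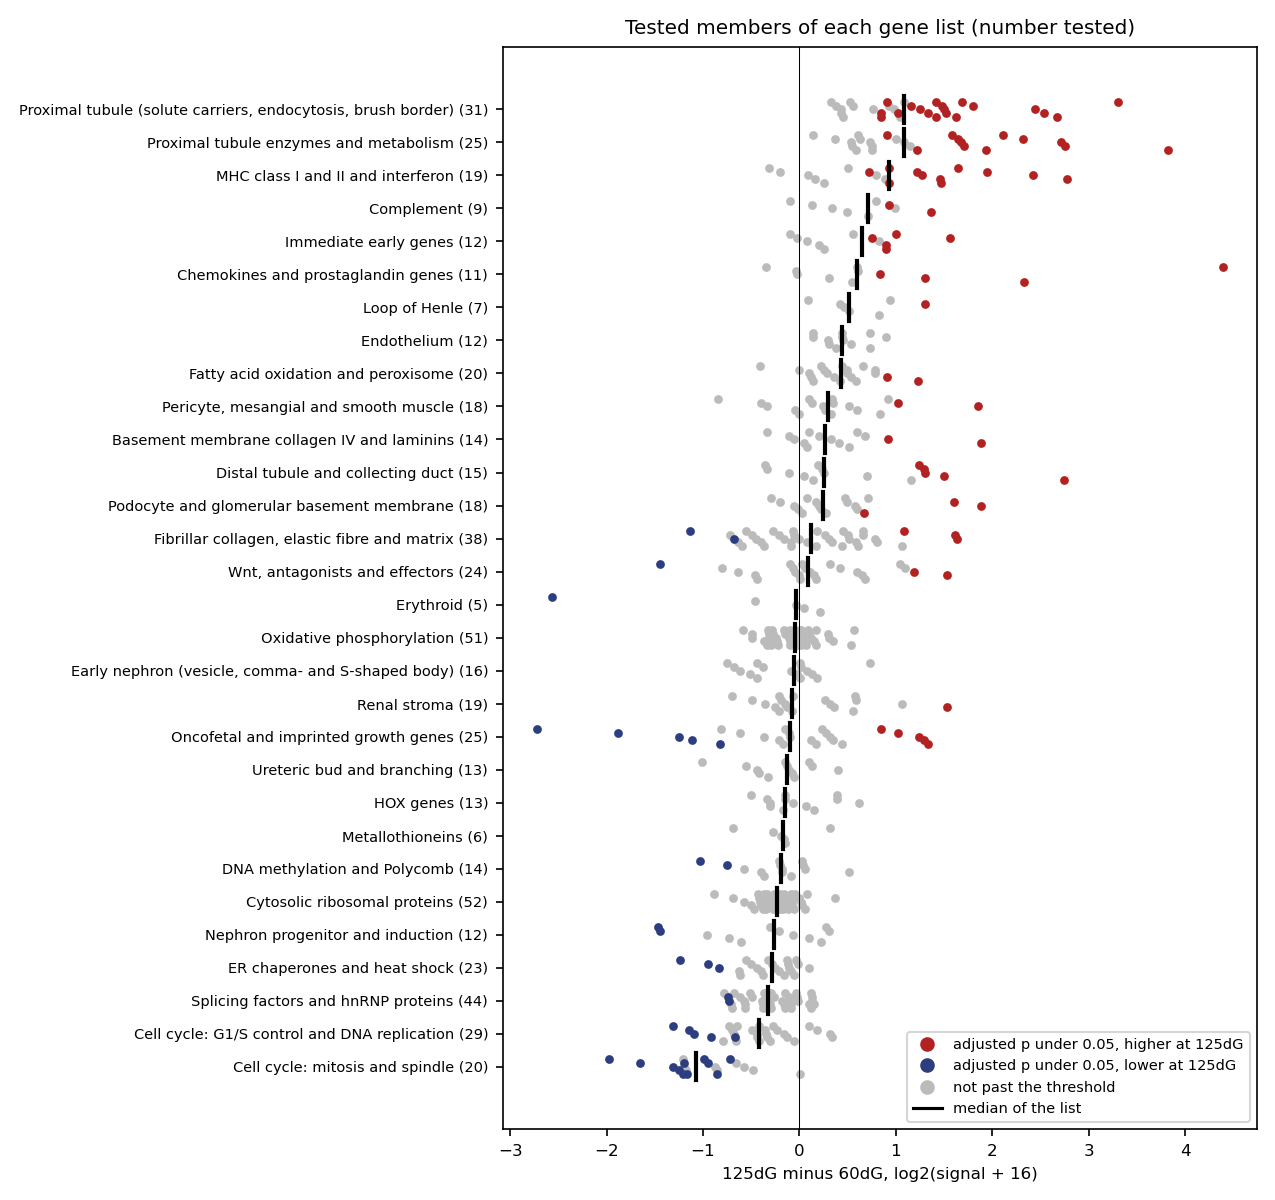
Difference in log2(signal + 16), 125dG minus 60dG (horizontal axis), of each tested gene of the gene lists with 5 or more tested, with 1 point per gene, the number tested in brackets, and a bar at the list median. Red and blue points passed the adjusted threshold as higher or lower at 125dG; 19 of 31 proximal tubule transport genes are red and 11 of 20 mitosis genes are blue.

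Of 29 listed nephron progenitor genes, 17 had a probe set and 12 passed the filter. Of the 12, 2 fell, where 1.43% of all genes tested did, and none was called with either 60dG array left out. EYA1, a progenitor transcription cofactor, read 136, 187 and 170.3 at 125dG, against 468 and 490.1 at 60dG (-1.47 ± 0.24); it fell under the filter when either 60dG array was left out, and so has no call there. SALL1, a progenitor transcription factor, was just outside the threshold, at 1065, 894 and 907 at 125dG and 1498 and 1420.0 at 60dG (-0.61 ± 0.17, limma adjusted p = 0.0602). SIX2, which keeps progenitors undifferentiated, did not pass the filter, with 98.9, 106 and 129 at 125dG and 215 and 194 at 60dG. COL2A1, the second called member, is also the main collagen of cartilage and read 418, 331 and 527 at 125dG, against 1169.7 and 1172 at 60dG (-1.45 ± 0.32). It lost its call with either 60dG array, or 125dG replicate 1 or 2, left out. The 15 cartilage genes with a probe set, COL2A1 among them, summed to 1590 to 2036 at 125dG, against 2887 and 3093 at 60dG, and their part in the fall of COL2A1 was not tested.

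None of the 16 early nephron genes, the 13 ureteric bud genes or the 13 HOX genes tested was called. LHX1, of the early nephron, differed by 0.08 ± 0.28, and the ureteric bud receptor RET by 0.13 ± 0.39. In the stroma list 1 of 19 tested rose, where 3.93% of all genes tested did. It was the Wnt antagonist SFRP1, by 1.53 ± 0.29, which lost its call without 60dG replicate 2. FOXD1, the stromal progenitor factor, differed by -0.70 ± 0.23 and was not called. Of 24 Wnt genes, SFRP1 and the receptor FZD5 (1.19 ± 0.28) rose, where 3.93% of all genes tested did. The antagonist DKK1 fell, where 1.43% of all genes tested did, at 259, 234 and 343 at 125dG and 763 and 793 at 60dG (-1.45 ± 0.26). FZD5 and DKK1 lost their calls with either 60dG array left out, FZD5 also without 125dG replicate 1 or 3. GJA1, connexin 43, fell by 1.40 (SE 0.30) and lost its call with either 60dG array, or 125dG replicate 2 or 3, left out.

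HBE1, the embryonic epsilon globin, read 399, 182 and 271 at 125dG, against 1127 and 2500.4 at 60dG (-2.56 ± 0.34), and was kept. It was the 1 gene called of 5 tested in the erythroid list, where 1.43% of all genes tested fell. The 16 erythroid genes with a probe set summed to 3384 to 3440 at 125dG, against 4379 and 6105 at 60dG. AFP, alpha-fetoprotein, made by fetal liver and yolk sac, read 969.7, 237 and 415 at 125dG, against 1542 and 3099 at 60dG (-2.21 ± 0.48). Its call was lost when 60dG replicate 2, or replicate 2 or 3 of 125dG, was left out. The 19 plasma and liver genes with a probe set, AFP among them, summed to 1688 to 2234 at 125dG, against 3235 and 5656 at 60dG. The part of blood or other tissue in these falls was not tested.

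None of the 52 tested cytosolic ribosomal proteins was called, although 47 differences were negative, with a median of -0.23. Of 44 splicing factors, SNRPA and SNRPG fell, by 0.74 (SE 0.16) and 0.73 (SE 0.18), and of 23 chaperones 3, HSPH1, HSPA5 and DNAJA1, fell, where 1.43% of all genes tested did, at -1.24, -0.95 and -0.84. HSPA5, the endoplasmic reticulum chaperone BiP, read 1588, 1114 and 1283 at 125dG, against 2436 and 2676 at 60dG. HSPH1 lost its call without 60dG replicate 2, and the other 4 lost theirs with either 60dG array left out. SNRPG and DNAJA1 did so also without 125dG replicate 2 or 3, SNRPA without 125dG replicate 3, HSPA5 without 125dG replicate 2 and DNAJA1 without 160dG replicate 3. The 6 tested metallothioneins had a median of -0.18 and none was called, but their median depended on the 60dG array used, at -0.83 with replicate 1 left out and 0.47 with replicate 2 left out.

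Of 12 tested immediate early genes, whose transcription responds quickly to growth factors, 5 rose and none fell. Among all genes tested, 3.93% rose. CCN1, a secreted matricellular protein, read 983, 807 and 929 at 125dG, against 291 and 302 at 60dG (1.56 ± 0.17), and was kept. The transcription factor EGR1 rose by 1.00 ± 0.18, JUNB by 0.90 and JUN by 0.75, and ZFP36, which destabilises messenger RNAs, by 0.90. EGR1, JUN and JUNB lost their calls with either 60dG array left out and ZFP36 without 60dG replicate 1. JUNB and ZFP36 also lost theirs whichever 125dG array was left out. With either 60dG array left out 13 were tested, and those then called included a gene not called in the full fit.

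The same model asked whether 125dG lay on the straight line, per day, from 60dG to 160dG. The 125dG mean was set against 0.35 times the 60dG mean plus 0.65 times the 160dG mean on the log2 scale. Of 5240 genes tested, 1 (0.0191%) departed from the line at an adjusted p under 0.05, none above it (0%) and 1 below it (0.0191%); 337 had an unadjusted p under 0.05. The comparisons share the 125dG and 60dG arrays, so their values are given side by side. The 206 genes that rose had a median difference of 1.15 at 125dG and 1.30 at 160dG, each against 60dG, and the 75 that fell had -1.04 and -1.29. Both sets were selected by their difference between 125dG and 60dG. That selection can enlarge the median at 125dG more than the median at 160dG, so no pace of change is read from them.

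The gene that departed was EAPP, an E2F-binding protein. It read 96.9, 133 and 85.1 at 125dG, against 463 and 400.3 at 60dG and 387, 299.9 and 408 at 160dG, so the 125dG arrays lay below those of both other stages. Its departure from the line was -1.75 (limma adjusted p = 0.0058), and leaving out replicate 1 or 3 of 125dG ended that call (limma adjusted p = 0.0592 and 0.0513). The fall between 60dG and 125dG was itself kept. The 90dG arrays, used only in the alternative fit on all 11 fetal arrays, read 220.2, 145 and 238. No other departure passed the test, and the following are given as values. CXCL14 lay 1.29 above the line and CD74 1.10 above it, while PTGER4, the prostaglandin E receptor, read 312, 322 and 315 at 125dG, 190.4 and 153 at 60dG and 753, 918 and 884 at 160dG, a departure of -0.61. The rise of PTGER4 between 60dG and 125dG (0.83) lost its call whichever of those 5 arrays was left out. SLC12A1 departed by -0.62. By list, the median departure was 0.35 for the 31 tested proximal tubule transport genes and -0.19 for the 7 of the loop of Henle. It was 0.01 over all genes tested. Other lists also lay off the line, such as cartilage at 0.30 (3 genes) and erythroid at -0.21 (5 genes). No list was tested against the line.

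**Figure D4:**
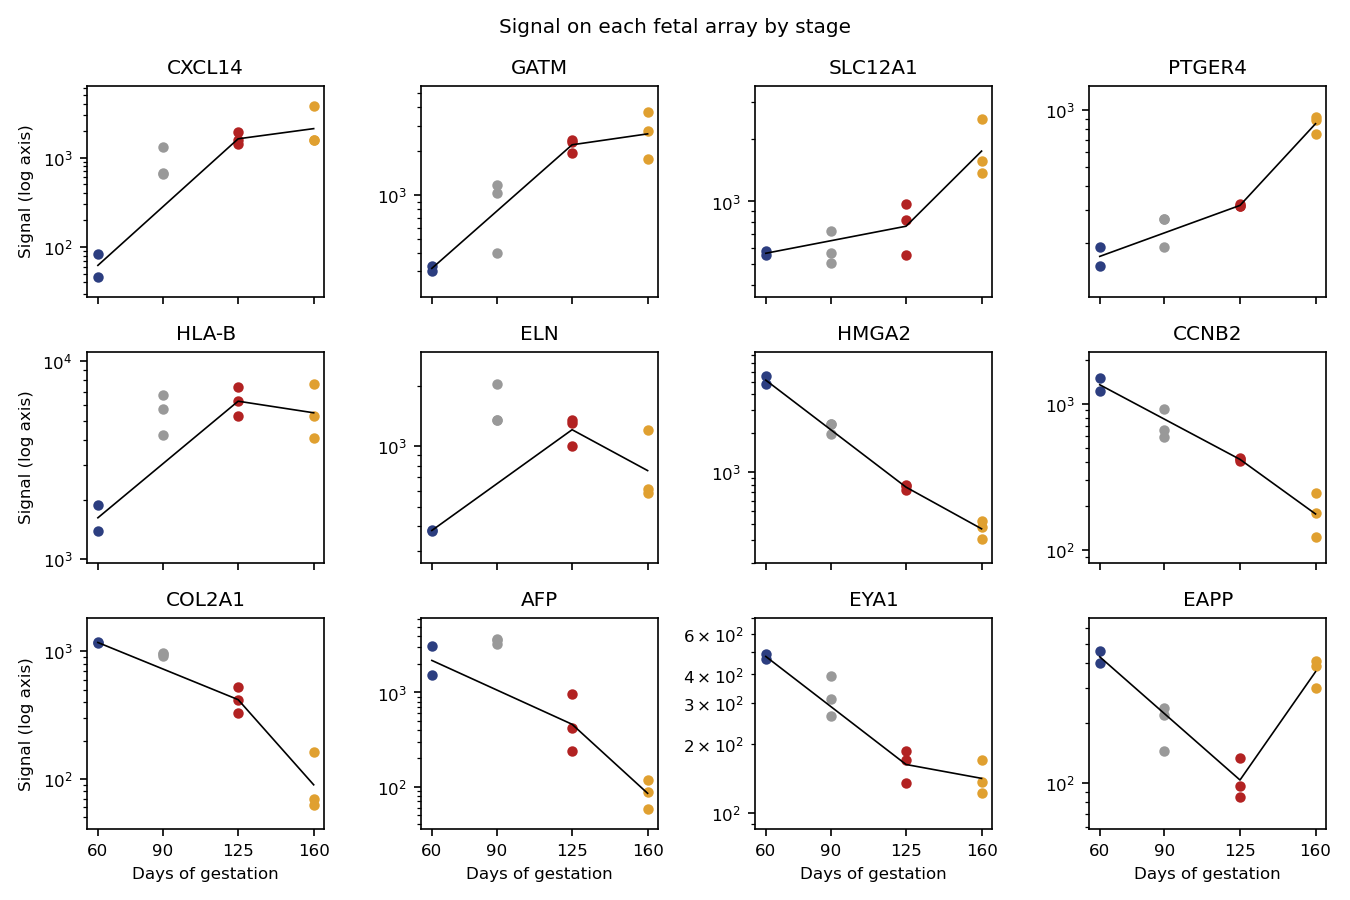
Probe set signal (log axis) by days of gestation for 12 genes, with a point per fetal array and a line through the log means at 60dG, 125dG and 160dG; the 90dG arrays (grey) are shown but not joined. EAPP lies between 85.1 and 133.4 at 125dG, below every 60dG and 160dG array, and SLC12A1 reads highest at 160dG.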

How the data were processed

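RNA was measured on 14 arrays; per the labels, 2 were at 60dG, 3 each at 90dG, 125dG and 160dG, and 3 adult. Values are linear probe set signal intensities deposited by the authors, made with GCOS per the submitters' processing notes; its version, signal algorithm and scaling target were not stated there. Each file holds 16186 probe sets, including 43 controls. Trimmed means (2%) were within 1.02 times of each other across fetal arrays, so nothing was rescaled. Gene names came from the platform annotation: 14068 probe sets have 1 symbol, 735 have several and 1340 have none. For 9580 genes, the brightest probe set (by mean over the 8 arrays of 60dG, 125dG and 160dG) was taken. Genes whose mean log2(signal + 16) exceeded the median of all probe sets (7.63, a signal of 181.5) were tested, 5240 in all.

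The test was limma 3.58.1 in R 4.3.3 (lmFit, eBayes with an intensity trend) on those 8 arrays, with 5 residual degrees of freedom and Benjamini-Hochberg adjusted p under 0.05. The fit was first tested on simulated data. There the straight-line comparison missed most of the changed genes, so a low count of departures does not show that genes lay on the line. Within a stage, log2 values correlated at 0.928 to 0.953. The alternatives tried were a pseudocount of 1 or 64, the filter dropped or set at the 0.75 quantile, quantile normalization, eBayes with no trend, a block for replicate number, array weights, every probe set, all 11 fetal arrays, only the 5 arrays compared, and leaving out each array; filter and probe set choice were repeated in each. The comparison, its gene lists and tests were chosen with earlier results of these data known. Named genes are the 15 largest differences each way among called genes without overlap, the 5 largest called departures from the line, up to 4 called members per list, and a set of kidney genes; other list members were named after their values were seen. Some listed kidney genes were not analysed here. Figures were drawn with matplotlib 3.10.9.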

Additional observations from a re-analysis of the deposited data

How the results depend on the processing

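For 125dG against 60dG, 281 genes were called, and 199 to 346 under 10 of the 11 alternatives other than leaving out an array. With the replicate number as a block, 182 were called; the labels give only a number, and same-numbered arrays deviated together with correlations of -0.05 to 0.18, so the numbers were not taken to pair the samples. Leaving out 1 array gave 85 to 297 calls, the lowest being 85 (60dG replicate 1 left out) and 122 (60dG replicate 2), then 174, 157 and 179 (125dG replicates 1, 2 and 3), and 262 to 297 with a 160dG array left out. Of the 72 named genes called, 30 kept their call in all 8 fits that left out an array, and EYA1 in the 6 of them that tested it. In the 11 other settings, 37 were tested and called in each, and 16 more were called in each setting that tested them. No difference changed sign, but arrays that do not overlap fix the sign in advance in most of these settings. For the departure from the straight line, 1 gene was called, 0 with the filter at the 0.75 quantile, where EAPP was not tested, and 0 with the replicate block (EAPP adjusted p = 0.0566, limma). Leaving out 1 array gave 0 to 3 calls: CD74 (1.43) and RPS4Y1 (1.97) lay above the line with 60dG replicate 2 left out, and ELN (1.22), SEC62 (-1.08) and CXCL14 (1.57) were called with 160dG replicate 1, 2 or 3 left out, each gene in a fit of its own. RPS4Y1 read 90.2 on 60dG replicate 1, the only 60dG array in the fit that called it, and 3332 to 5562 on the other fetal arrays. Its departure therefore rests on that array. The 2 arrays at 60dG limit every difference, and dim genes lie near the lowest signals, for which the files used give no detection call.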

Other observations

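Lysosomal genes, a group listed after their values were seen and so given no test, were often among the genes that rose. Of 64 lysosomal hydrolases, membrane proteins and their carriers written from textbook knowledge, 51 had a probe set and 41 passed the filter. Of the 41, 14 rose between 60dG and 125dG and none fell, 36 differences were positive, and the median was 0.56 against -0.00 over all genes tested, of which 3.93% rose. PSAP, the precursor of the saposins that help degrade sphingolipids, read 3185, 2789.7 and 2277 at 125dG, against 1125 and 909 at 60dG (1.42 ± 0.23, limma adjusted p = 0.00518). CTSL, the protease cathepsin L, read 1039, 913 and 952 at 125dG, against 437 and 384 at 60dG (1.21 ± 0.16). LAMP2, a lysosomal membrane protein, read 903, 499 and 557 at 125dG, against 262 and 268 at 60dG (1.20 ± 0.24). The arrays of the stages did not overlap for these 3, but PSAP lost its call without 60dG replicate 2 and LAMP2 with either 60dG array left out. Other members did not differ by the test, such as CD63 at 0.10 ± 0.14. Without 60dG replicate 1, 4 of the 41 were called higher, and without 60dG replicate 2, 5.

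Several called genes outside the lists, also chosen after their values were seen, had large differences. SULT1C2, a sulfotransferase, read 545, 467 and 621 at 125dG, against 166 and 119 at 60dG (1.83 ± 0.21). NOX4, the NADPH oxidase abundant in kidney, read 303, 235 and 282 at 125dG, against 54.8 and 78.8 at 60dG (1.81 ± 0.26). ANK2, an ankyrin that ties membrane proteins to the cytoskeleton, read 1291, 1339 and 1326 at 125dG, against 443 and 351 at 60dG (1.70 ± 0.17). All 3 kept their call whichever array was left out. For fructose handling, KHK, ketohexokinase, read 569.8, 711 and 486 at 125dG, against 167 and 190.3 at 60dG (1.62 ± 0.38), and SLC2A5, the fructose carrier, read 308, 314 and 398 at 125dG, against 92.3 and 209.6 at 60dG (1.18 ± 0.29). KHK lost its call with either 60dG array left out (limma adjusted p = 0.169 and 0.105), and SLC2A5 without 60dG replicate 1 (0.338); both also lost it whichever 125dG array was left out. DIO1, which activates thyroid hormone, read 314, 304 and 263 at 125dG, against 61.4 and 120.2 at 60dG (1.59 ± 0.26), with a limma adjusted p of 0.0542 without 60dG replicate 1.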
